A study of Homo sapiens with 4 samples.

Results

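The genes described here were 9 stress targets of the transcription factor p53: MDM2, ZMAT3, SESN1, SESN2, GDF15, TP53INP1, RRM2B, GADD45A and BTG2. They were taken as the non-control spots whose gene name is one of these symbols, and they were 9 of the 27193 gene names on the array and 9 of the 22020 genes that could be tested. The comparison was between 2 control samples of the MCF10A.B2 line (control) and 2 samples in which the same line carried a shRNA directed at PAK1 (PAK1 shRNA), each on its own one-colour human expression array. PAK1 is a serine/threonine kinase that acts downstream of the small GTPases Rac and Cdc42.

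MCF10A is a non-tumorigenic human mammary epithelial cell line. In its B2 derivative all 4 samples carried a chimeric ErbB2 (Her2) receptor that is switched on by a chemical dimerizer, AP1510. Cells of both groups were grown with 5% horse serum, kept without serum for 3 h and then given AP1510 for 15 min, so each value below was measured after a short ErbB2 stimulus, and no unstimulated group was analysed here. The shRNA was Tet-inducible. The labels call the other group only control or PAK1 wild type, no array of a non-targeting shRNA was analysed here, and the labels do not say whether the shRNA cells were a clone and give no origin for the replicates, so the p-values measure the spread between these samples, which may be technical. The series description speaks of cells from different tumors, whereas the sample labels and the methods name the cell line, which was followed.

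p53 is held at a low level in resting cells by the ubiquitin ligase MDM2, which p53 itself switches on, and it accumulates when DNA is damaged or when nucleotides, ribosomes or oxidants are disturbed. Its target genes then stop the cell cycle, restore nucleotide and redox balance, damp growth signalling or start cell death. Several of them, among them SESN2, GDF15 and GADD45A, are also known to be switched on by other stress pathways without p53. Mammary epithelial cells carry both p53 and its relative p63, which marks the basal layer.

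The 4 arrays lay on 1 slide and resembled each other in coverage, with 78.9 to 83.1% of the probes well above background. The control arrays were brighter before normalization, with median signals of 501 and 384 against 326 and 319 with the shRNA, and the 7 spike-in probes, which read RNA added to every sample at labelling, differed by -0.24 (log2, PAK1 shRNA minus control). PAK1 itself, the targeted gene, read 11.19 and 11.27 (log2 intensity) in control and 10.45 and 10.51 in PAK1 shRNA cells, a log2 fold change of -0.75 ± 0.08 (SE, n = 2 and 2, limma adjusted p = 0.000176), which is 59.5% of the control level. All 10 markers of mammary basal epithelium were well above background on every array, and the log2 of their summed intensity was 19.2 to 19.3 in control and 19.6 in both PAK1 shRNA samples. Singly, 4 of them rose, among them the bright LAMB3 (1.35), 5 fell, among them KRT5 (-1.14) and TP63 (-1.13), and their median was -0.22. Of 6 fibroblast markers 3 were above background on every array and the collagens COL1A2 and COL3A1 on none, with summed levels of 12.24 and 12 in control and 12.99 and 12.96 in PAK1 shRNA cells. Singly, 4 could be tested, of which 3 rose, among them LUM (1.79), and 1 fell, with a median of 0.87. All 6 leukocyte markers were above background too, with summed levels of 14.3 to 14.4 in control and 15.7 to 15.8 with the PAK1 shRNA and log2 fold changes of 1.32 for CD14 and 3.75 for CD68, and their part in the results below was not tested.

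Of the 9 genes, 8 were higher and 1 was lower in PAK1 shRNA cells at an adjusted p under 0.05 (limma, Benjamini-Hochberg over all genes tested), of which the rises of ZMAT3, TP53INP1 and GADD45A were lost under other scalings of the arrays that are given further on. Calls were common in this comparison, since 62.9% of all genes tested were called, 31.1% higher and 31.8% lower. The median log2 fold change of the 9 genes was 0.98, against 0.02 over all genes. GDF15, MDM2, SESN2 and SESN1 rose at least 2-fold, a rise seen in 8.86% of all genes, and RRM2B lay just below that size. BTG2 was the gene that fell, and it fell by less than 2-fold, where 8.93% of all genes fell by at least that much. The control and PAK1 shRNA arrays did not overlap for any of the 9, but the same held for 81.7% of all genes, 42.1% higher and 39.6% lower, and with 2 samples against 2 an exact permutation test cannot go below p = 0.333.

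**Figure D1:**
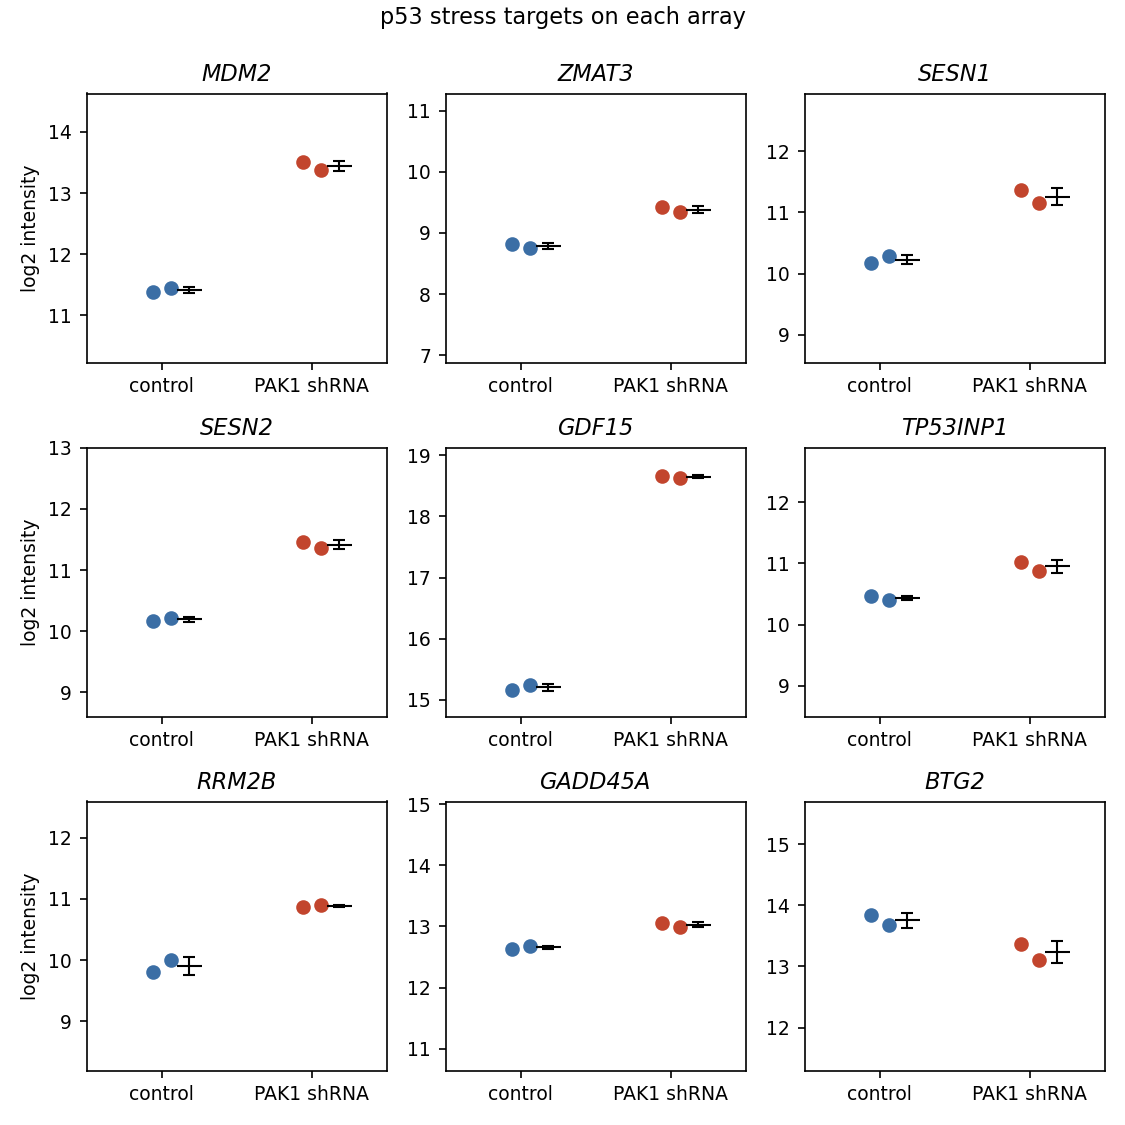
Log2 intensity of each of the 9 p53 stress targets on the 2 control arrays (blue points) and the 2 PAK1 shRNA arrays (red points), with the mean and SD of each group as a black bar. Every axis has its own position and none starts at 0, so levels cannot be compared between genes. GDF15 shows the widest gap, from 15.17 and 15.25 to 18.66 and 18.63, and BTG2 alone lies lower with the shRNA.

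MDM2 encodes the ubiquitin ligase that marks p53 for degradation and so closes a feedback loop on it. Its level was 11.38 and 11.45 (log2 intensity) in control cells and 13.50 and 13.38 in PAK1 shRNA cells. The 2 values of each group lay close together and the groups were far apart. The log2 fold change was 2.02 ± 0.08 (SE, n = 2 and 2, limma adjusted p = 3.38e-06), a 4.07-fold rise, and 588 called genes rose by more. MDM2 was measured by 3 probes on chromosome 12 (hg19), at 69233570 to 69233629, 69233822 to 69233881 and 69238891 to 69238950, and the log2 fold changes were 2.02, 2.06 and 1.97. The middle probe was printed 10 times on each array, and the SD between its spots was 0.10 to 0.11 on every array, so the rise was many times the scatter between spots.

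ZMAT3 encodes a zinc finger RNA-binding protein that p53 switches on. A single probe on chromosome 3, at 178742161 to 178742220 (hg19), printed 10 times per array, read 8.81 and 8.75 in control and 9.42 and 9.33 in PAK1 shRNA cells. The difference was 0.59 ± 0.08 (log2, SE, adjusted p = 0.000539), and the lowest spot of the PAK1 shRNA arrays (9.18) lay above the highest spot of the control arrays (9.04). In the signal as deposited, before normalization, the groups overlapped, with medians of 565 and 415 in control and 562 and 515 in PAK1 shRNA cells.

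Promoters of 6 of the 9 genes were examined because 8 of the 9 moved one way. TP53INP1, RRM2B and GADD45A were not part of this search, which says nothing about their promoters. RefSeq windows (GRCh38.p14) of 250 bases before to 50 bases after an annotated start were used for the other 6 genes and gave 12 windows. They were searched on both strands for the p53 response element, 2 directly joined half-sites of 10 bases, with at most 3 mismatches and the invariant C and G of each half-site kept. MDM2, SESN1 and GDF15 each held a match, in 4 of the 12 windows, of which 2 overlapped and held the same MDM2 match. Over all 35116 human promoter windows, with no chromosome left out of the search, 1.12% held one. The 9 genes were taken as known p53 targets, so these matches say nothing about the arrays. The stretches before the start of MDM2 and SESN1 are shown because they carry a match upstream of the start, and the GDF15 match is shown alone because it lies after the start. Capitals mark the match.
MDM2, chr12:68808867-68809016, plus strand: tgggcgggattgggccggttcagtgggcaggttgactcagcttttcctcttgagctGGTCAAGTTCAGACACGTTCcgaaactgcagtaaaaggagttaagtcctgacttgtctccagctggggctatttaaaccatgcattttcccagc
SESN1, chr6:109008989-109009138, minus strand: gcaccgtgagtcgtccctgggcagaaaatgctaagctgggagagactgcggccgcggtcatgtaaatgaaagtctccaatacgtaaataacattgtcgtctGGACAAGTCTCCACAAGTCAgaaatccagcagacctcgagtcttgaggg
GDF15, chr19:18386186-18386205, plus strand: AGCCATGCCCGGGCAAGAAC

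The MDM2 match had 2 mismatches and began at base -94 from the annotated start of one transcript. The SESN1 match had 3 mismatches and began at base -49 from the start in one of its 3 windows. The GDF15 match also had 3 mismatches. BTG2 and SESN2 held no match in these windows, nor did ZMAT3, which says only that these letters are not in these windows.

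SESN1 and SESN2 encode sestrins, which restrain the growth kinase complex mTORC1 and limit peroxide damage. SESN1 read 10.18 and 10.28 in control and 11.36 and 11.16 in PAK1 shRNA cells (log2 intensity, chromosome 6, 109308477 to 109308536, hg19). SESN2 read 10.17 and 10.22 in control and 11.47 and 11.36 in PAK1 shRNA cells (chromosome 1, 28608194 to 28608253). Both sestrins were thus higher on each PAK1 shRNA array than on either control array. The log2 fold change was 1.03 ± 0.09 for SESN1 (SE, n = 2 and 2, limma adjusted p = 0.000112). It was 1.22 ± 0.08 for SESN2 (adjusted p = 2.2e-05). The sestrin without a place among the 9 genes, SESN3, read 7.64 and 7.51 in control and 7.47 and 7.38 in PAK1 shRNA cells, a difference of -0.15 ± 0.08 that did not pass the test (adjusted p = 0.164).

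GDF15 encodes a secreted cytokine of the TGF-beta superfamily that is released by stressed cells and acts on a receptor in the hindbrain. It rose most of the 9 genes, from 15.17 and 15.25 in control to 18.66 and 18.63 in PAK1 shRNA cells (log2 intensity, chromosome 19, 18499890 to 18499949, hg19). The log2 fold change was 3.44 ± 0.07 (SE, n = 2 and 2, limma adjusted p = 4.33e-07), a 10.8-fold rise, and 168 called genes rose by more. Its spot was so bright that on all 4 arrays the signal had been scaled up from the scan at low gain, with signals of 46828 and 39783 in control and 379174 and 370167 in PAK1 shRNA cells, and none of the 4 was marked saturated.

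TP53INP1 encodes a nuclear protein linked to p53-dependent death and to autophagy. The probe that stands for it read 10.46 and 10.41 in control and 11.03 and 10.88 in PAK1 shRNA cells, a log2 fold change of 0.52 ± 0.08 (SE, n = 2 and 2, limma adjusted p = 0.00154). Its dimmer probe read 8.11 and 7.83 in control and 8.35 and 8.16 in PAK1 shRNA cells. The difference there was 0.29 ± 0.12 and did not pass the test over all probes (adjusted p = 0.0662), so the rise of this gene rested on one of its 2 probes. It also lost its call with the methods' t-test, which they name for the study in general and not for the arrays, after adjustment (adjusted p = 0.0511), and without scaling between arrays it was -0.021.

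RRM2B encodes the p53-inducible small subunit of ribonucleotide reductase, the enzyme that makes deoxynucleotides. It read 9.80 and 10.003 in control and 10.87 and 10.89 in PAK1 shRNA cells, a log2 fold change of 0.98 ± 0.09 (SE, n = 2 and 2, limma adjusted p = 0.000115). The fold changes of RRM2B and SESN1 differed by less than the standard error of either. A second RRM2B probe rose by 1.16 ± 0.10, from 7.999 and 8.24 to 9.25 and 9.30. The other subunits of the same enzyme went the other way. RRM1, the large subunit, read 14.39 and 14.52 in control and 11.30 and 11.17 in PAK1 shRNA cells (-3.22, adjusted p = 8.29e-07), and RRM2, the small subunit of dividing cells, fell by 2.58 (adjusted p = 1.67e-06).

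GADD45A encodes a small stress protein that binds PCNA, p21 and the kinase MEKK4 and takes part in cell cycle arrest. It was 12.64 and 12.68 in control and 13.05 and 12.996 in PAK1 shRNA cells (log2 intensity, chromosome 1, 68153371 to 68153430, hg19). The log2 fold change of 0.37 ± 0.07 (SE, n = 2 and 2, limma adjusted p = 0.0044) was the smallest among the 8 rises, and without scaling between arrays it was -0.13, above the median of all genes there (-0.29). Its relatives GADD45B and GADD45G changed by 0.24 (adjusted p = 0.0284) and 0.36 (adjusted p = 0.00758), of which GADD45B lost its call when 1 array was left out, whichever it was, and GADD45G lost it without PAK1 shRNA replicate 1 (0.29, adjusted p = 0.0515). GADD45B was 0.20 to 0.27 with an array left out, and without scaling between arrays GADD45B was -0.27 and GADD45G -0.13. Further settings in which GADD45B and GADD45G lost their calls are given at the end.

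BTG2 encodes an antiproliferative protein that recruits the deadenylase of the CCR4-NOT complex to messenger RNAs. It read 13.84 and 13.67 in control and 13.37 and 13.11 in PAK1 shRNA cells (log2 intensity, chromosome 1, 203278454 to 203278513, hg19), and its log2 fold change was -0.52 ± 0.11 (SE, n = 2 and 2, limma adjusted p = 0.00603). The fall was the smallest of the 9 changes in relation to its standard error, and the lower control array and the higher PAK1 shRNA array were 13.67 and 13.37. It lost its call with the methods' t-test for the study in general after adjustment (adjusted p = 0.127). BTG1, its closest relative, went the other way, from 10.83 and 10.82 to 13.08 and 13.35 (2.40 ± 0.10, adjusted p = 4.63e-06).

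**Figure D2:**
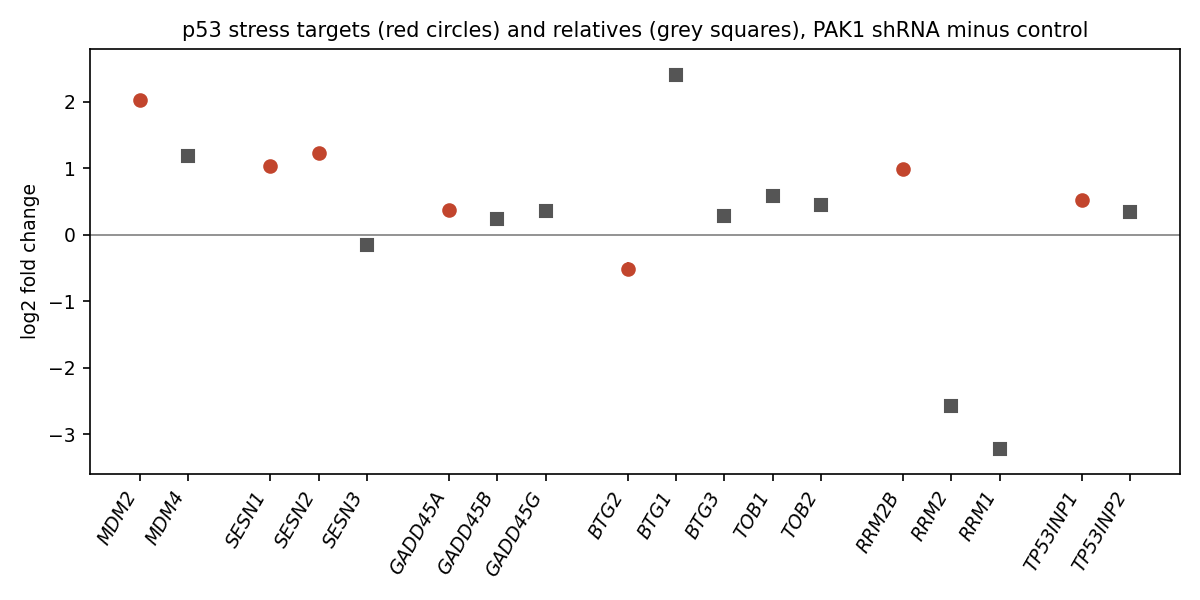
Log2 fold change, PAK1 shRNA minus control, of 7 p53 stress targets (red circles) and the measured relatives of 6 gene families (grey squares); bars are standard errors and are mostly hidden by the symbols. RRM2B lies above 0 and RRM1 (-3.22) and RRM2 (-2.58) below it, while BTG2 lies below 0 and BTG1 (2.40) above it.

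Over the 15 tested relatives of the 9 genes, 8 rose, 4 fell and 3 did not pass the test, with a median of 0.28. Of all genes 31.1% were called higher and 31.8% lower. But with spike-in scaling, and likewise without scaling between arrays, 2 relatives rose and 4 fell. The shares of all genes called higher and lower were then 15.4% and 28.7% with the spike-ins, and 10.8% and 40.5% without scaling. MDM4, the partner of MDM2 that blocks the transactivation domain of p53, rose from 11.67 and 11.56 to 12.83 and 12.75 (1.18 ± 0.08, adjusted p = 2.77e-05). TP53INP2, a relative of TP53INP1 with a role in autophagy, changed by 0.34 (adjusted p = 0.00583) and lost its call with spike-in scaling (0.36, adjusted p = 0.157) and without scaling between arrays (0.11, adjusted p = 0.666). BTG4, GDF10, MSTN and ZMAT1 were on the array but did not pass the filter on low signal.

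The size of these changes depended on how the arrays were scaled to each other. Without any scaling between arrays the median of all genes was -0.29 on the log2 scale, close to the -0.24 of the spike-in probes. Scaled by the spike-in probes, a choice made after the data were seen, 5 of the 9 genes rose and BTG2 fell, where 15.4% of all genes were called higher and 28.7% lower. The log2 fold changes were then 3.36 for GDF15, 1.79 for MDM2, 0.95 for SESN2, 0.75 for SESN1, 0.70 for RRM2B and -0.72 for BTG2. GADD45A (0.12, adjusted p = 0.715), TP53INP1 (0.22, adjusted p = 0.423) and ZMAT3 (0.37, adjusted p = 0.146) no longer passed, at a standard error of 0.21 for each of the 9 genes under this scaling. In the deposited signal itself 5 genes were higher without overlap, BTG2 was lower without overlap and those same 3 genes overlapped between the groups. The share of all genes without overlap in the deposited signal was not computed, so these counts cannot be read against it.

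**Figure D3:**
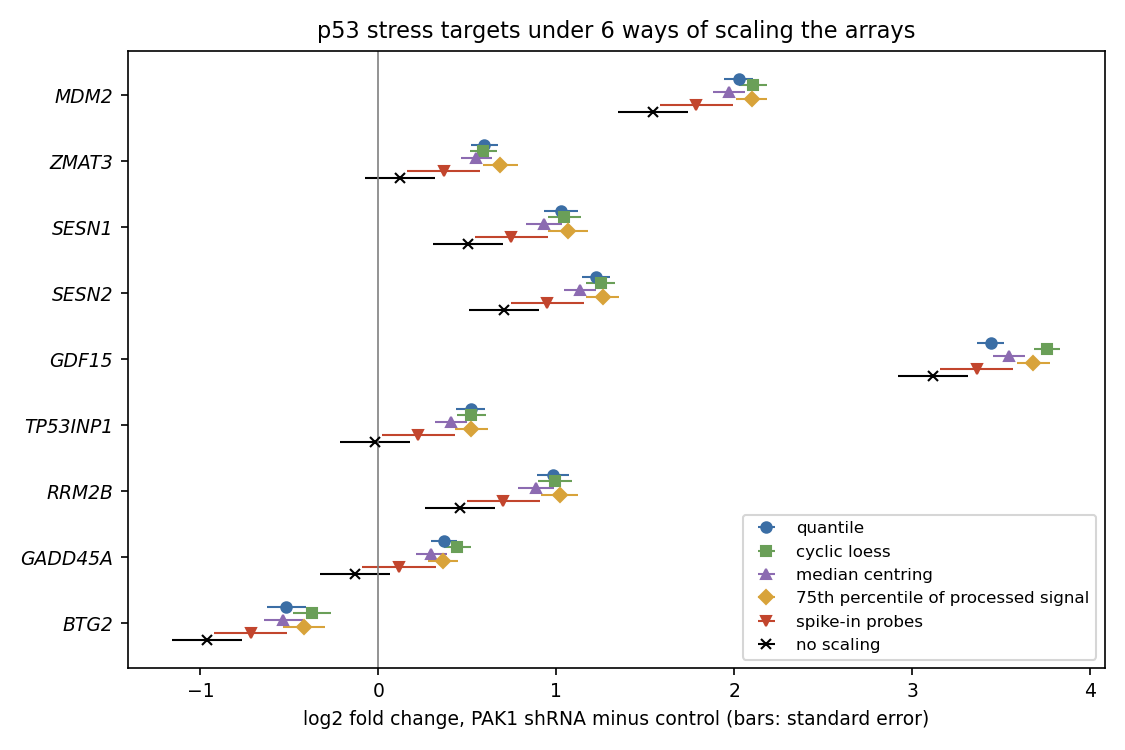
Log2 fold change, PAK1 shRNA minus control, of the 9 p53 stress targets under 6 ways of scaling the arrays to each other, with the standard error as a horizontal bar. GDF15, MDM2, SESN2, SESN1 and RRM2B stay above 0 and BTG2 stays below 0 in each, while TP53INP1 (-0.021) and GADD45A (-0.13) lie below 0 without scaling.

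The list of relatives and regulators of p53 held 14 genes, of which 4 rose, 7 fell and 3 did not pass the test, with a median log2 fold change of -0.13 and against 31.1% of all genes called higher and 31.8% lower. The p53 relatives TP73 (-1.55, adjusted p = 7.33e-06) and TP63 (-1.13, adjusted p = 4.64e-05) fell by more than 2-fold, and TP63 was also one of the basal markers above. WRAP53, whose protein serves telomerase, fell as well (-1.41, adjusted p = 2.76e-05). MDM4, counted here and among the relatives, was the one gene of the list that rose at least 2-fold. PPM1D fell (-0.37, adjusted p = 0.0288) and is counted both here and among the other p53 target genes below. Scaled by the spike-in probes, 1 gene of the list rose and 7 fell, where 15.4% of all genes were called higher and 28.7% lower.

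Beyond the 9 genes, 35 other p53 target genes were examined, of which 18 rose, 6 fell and 11 did not pass the test, with a median of 0.45, against 31.1% of all genes called higher and 31.8% lower. With spike-in scaling 16 rose and 8 fell, where 15.4% of all genes were called higher and 28.7% lower. Without scaling between arrays 14 rose and 12 fell, where 10.8% of all genes were called higher and 40.5% lower. At least 2-fold rises were seen in 13 of the 18. TRIM22, an interferon- and p53-inducible antiviral ubiquitin ligase, rose from 11.53 and 11.28 to 15.74 and 15.77 (4.35, adjusted p = 5.17e-07). PMAIP1, which encodes the death protein NOXA, rose from 10.53 and 10.77 to 14.54 and 14.99 (4.11, adjusted p = 3.01e-06). Both of these genes are also known as targets of interferon regulatory factors.

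Rises were likewise seen for the lysosomal autophagy gene DRAM1 (2.96, adjusted p = 3.76e-06), the death receptor FAS (2.65, adjusted p = 1.42e-06) and the BH3-only gene BBC3, which encodes PUMA (2.35, adjusted p = 1.56e-06). CDKN1A, which encodes the cell cycle inhibitor p21, read 9.04 and 9.26 in control and 10.33 and 10.31 in PAK1 shRNA cells (1.17 ± 0.09, adjusted p = 5.9e-05). The falls of at least 2-fold were GLS2, a mitochondrial glutaminase (-2.43, adjusted p = 1.09e-05), and POLH, a translesion DNA polymerase (-1.11, adjusted p = 0.000121).

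**Figure D4:**
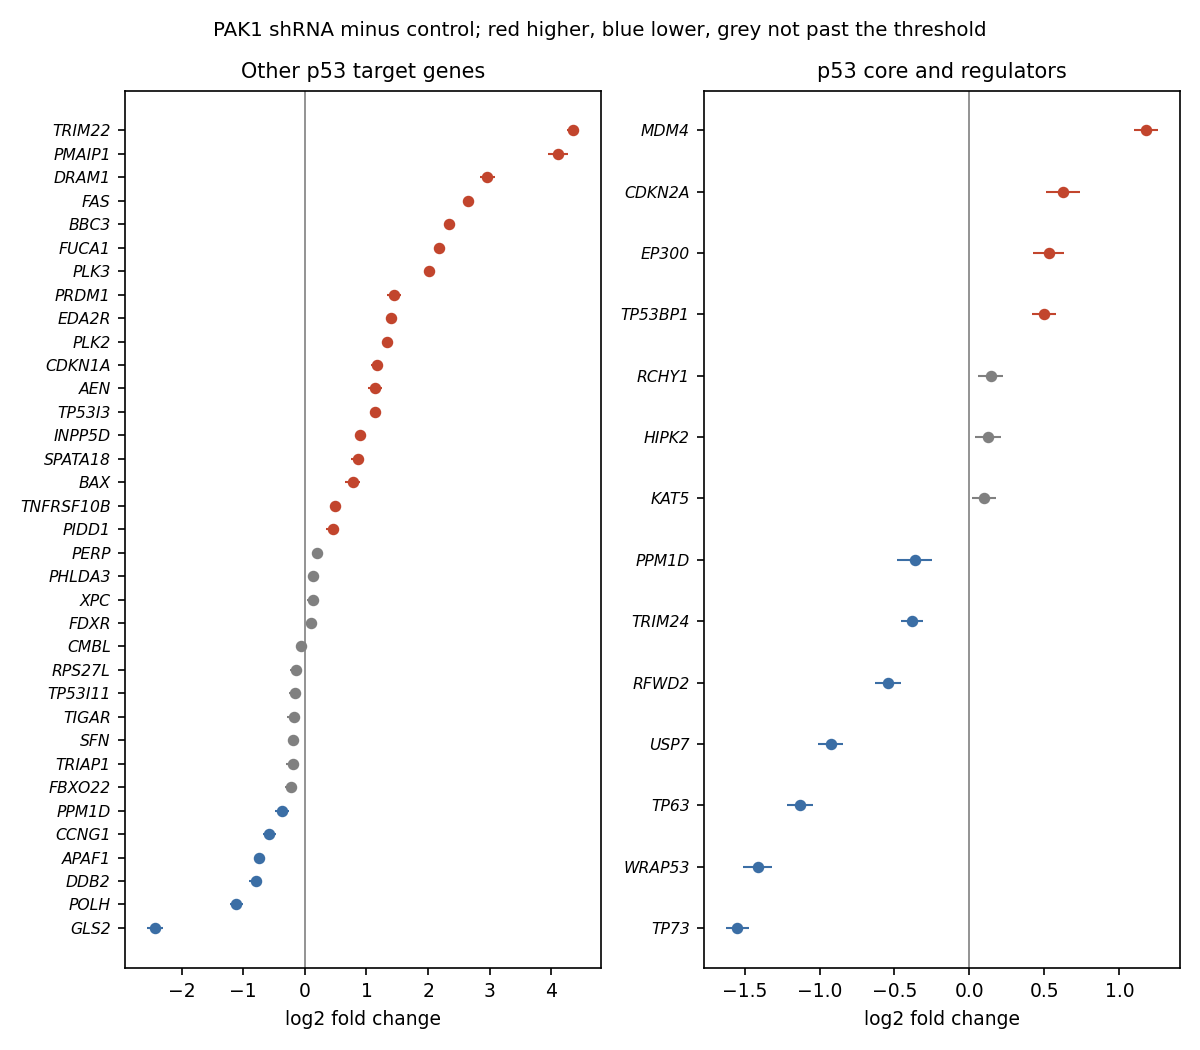
Log2 fold change, PAK1 shRNA minus control, with its standard error, of the 35 other p53 target genes (left) and the 14 relatives and regulators of p53 (right), each sorted by value; red passed the test upward, blue downward and grey did not pass. The target genes run from 4.35 (TRIM22) to -2.43 (GLS2), and the regulators from 1.18 (MDM4) to -1.55 (TP73).

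Because some of the 9 genes also answer to other stress pathways, 20 genes of the integrated stress response were examined, in which 10 rose, 7 fell and 3 did not pass the test (median 0.29), against 31.1% of all genes called higher and 31.8% lower. With spike-in scaling 7 rose and 7 fell, against 15.4% of all genes called higher and 28.7% lower. Without scaling between arrays 7 rose and 8 fell, against 10.8% called higher and 40.5% lower. ATF3, a stress transcription factor, rose from 9.39 and 9.93 to 14.94 and 15.34 (5.48, adjusted p = 2.51e-06). XBP1 (2.58), PPP1R15A (2.48), NUPR1 (1.98) and VLDLR (1.63) rose as well, with adjusted p of 1.21e-05, 1.54e-05, 1.24e-05 and 4.89e-06. The genes of serine and asparagine synthesis fell, namely PHGDH (-3.90), PSAT1 (-1.51) and ASNS (-1.62), as did the amino acid transporter chain SLC3A2 (-1.99) and the pseudokinase TRIB3 (-1.72). ATF4, the central transcription factor of this response, was at 0.08 (adjusted p = 0.353), and its own control is known to lie largely in translation, which these arrays do not measure.

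Of 18 tested immediate early genes, the fast targets of growth factor signalling, 12 rose, 5 fell and 1 did not pass the test (median 0.51), against 31.1% of all genes called higher and 31.8% lower. With spike-in scaling 8 rose and 5 fell, against 15.4% of all genes called higher and 28.7% lower. Without scaling between arrays 4 rose and 6 fell, against 10.8% called higher and 40.5% lower. ATF3, counted here and among the stress response genes, rose most (5.48, adjusted p = 2.51e-06). KLF4 (3.59), DUSP1 (1.56) and ZFP36 (1.11) rose too, with adjusted p of 2.22e-06, 1.09e-05 and 3.95e-05. FOS (-1.09, adjusted p = 3.27e-05), FOSB (-1.58, adjusted p = 7.02e-05) and EGR2 (-2.76, adjusted p = 7.37e-05) fell. EGR3, at 9.97 and 10.25 (log2 intensity) in control, fell too and was not well above background on either PAK1 shRNA array (adjusted p = 9.43e-07), so no fold change is given for it.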

How the data were processed

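The authors deposited the Agilent Feature Extraction (version 9.5.3.1) intensity of each spot of 4 arrays, not normalized between arrays, and also a table of processed log2 values, which served as one alternative. Probe positions (hg19) and gene names come from the files, with 2 list genes found under an older symbol. The methods name normexp, quantile normalization and limma. Here normexp (offset 50) was fitted to mean minus local background signal without spots of flagged background, outlier and control spots were dropped, and values were quantile normalized. Repeated spots were averaged per probe, the filter kept probes well above background in both samples of at least 1 group, and the brightest probe stood for its gene. The groups were compared with limma 3.58.1 (R 4.3.3), Benjamini-Hochberg adjustment and a threshold of 0.05. The number of arrays limits the precision.

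The genes and lists were chosen with earlier results of these data known. Named were the 9 genes, PAK1, CDKN1A, MDM4, SESN3, GADD45B, GADD45G, BTG1, RRM1, RRM2, TP53INP2 and, per list, up to 5 rises and 5 falls of at least 2-fold. BTG4, GDF10, MSTN and ZMAT1 are named outside this rule, as relatives that could not be tested. ATF4 was named after its value was seen, and PPM1D because it is counted in both p53 lists. One further gene of the regulator list is not reported here. Alternatives covered background correction, signal, scaling, filter, flags, probe rule, test (the methods' t-test, named there for the study in general and not for the arrays), replicate block and each array left out. With 1 slide, a slide block could not be fitted.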

Additional observations from a re-analysis of the deposited data

How the results depend on the processing

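MDM2, SESN1, SESN2, GDF15 and RRM2B stayed higher and PAK1 lower, past the threshold, under all 20 alternatives. BTG2 stayed lower and lost its call with the methods' t-test for the study in general after adjustment (-0.52, adjusted p = 0.127). With that test TP53INP1 (0.52, adjusted p = 0.0511), PSAT1 (-1.51, adjusted p = 0.0595), GADD45B (0.24, adjusted p = 0.058) and GADD45G (0.36, adjusted p = 0.074) lost theirs too. That test called 9167 genes, 7 of the relatives and regulators of p53 and 7 of the relatives of the 9 genes, against 13843, 11 and 12. GADD45B also lost its call with median centring (0.16, adjusted p = 0.15), and GADD45G with the mean over its probes (0.16, adjusted p = 0.136). Without normalization between arrays, added after the data were seen, TP53INP1 (-0.021), GADD45A (-0.13), GADD45B (-0.27) and GADD45G (-0.13) reversed, ZMAT3 was 0.12, TP53INP2 was 0.11, and 6 relatives (2 higher, 4 lower) and 10 immediate early genes were called. With spike-in scaling, also added then, TP53INP1 was 0.22, ZMAT3 0.37 and GADD45A 0.12, TP53INP2 0.36, GADD45B reversed (-0.027), and 6 relatives (2 higher, 4 lower) were called. Genes called were 6843 higher and 7000 lower as reported, 2382 and 8917 without normalization, 3389 and 6324 with the spike-ins, and 8526 and 6645 with median centring, where the median of all genes was 0.14; with the 75th percentile it was 0.12. The cause of these changes was not tested.

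Leaving out each array in turn, 11785 to 13094 genes were called and all 9 genes stayed called, with MDM2 at 1.96 to 2.09, SESN1 at 0.93 to 1.13, SESN2 at 1.17 to 1.27, GDF15 at 3.40 to 3.48, TP53INP1 at 0.45 to 0.59, RRM2B at 0.88 to 1.08, ZMAT3 at 0.55 to 0.64, GADD45A at 0.34 to 0.40, BTG2 at -0.65 to -0.39 and PAK1 at -0.79 to -0.71; a lone array was assumed to vary like the other group. The correlation of deviations of same-numbered arrays was 0.01, which gives no sign of pairing by number; with the replicate block 7019 genes were higher and 7084 lower, and the 9 genes kept their calls. Over 36 list genes, 703 of 719 values kept direction and side of the threshold, 13 lost the call and 3 reversed. Every tested probe of the 9 genes was well above background on all 4 arrays.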
